A study of Homo sapiens with 12 samples.

Results

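The effect of CsA on HK-2 cells after 48 h was set against its effect after 12 h. HK-2 is an immortalised epithelial line derived from human kidney proximal tubule. CsA is taken to be cyclosporine A, whose complex with a cyclophilin blocks the phosphatase calcineurin and which is used against transplant rejection despite its toxicity to the kidney. The 12 arrays formed 4 groups of 3 biological replicates, all of the same line, treated with CsA for 12 h or for 48 h or kept as controls for 12 h or for 48 h. Control cells received the vehicle alone, and the labels give neither the dose of CsA nor what a replicate number stands for. A pair difference is the log2 level under CsA minus that of the same-numbered control of that time, so each gene has 3 pair differences at 12 h and 3 at 48 h. The contrast is the mean pair difference at 48 h minus the mean at 12 h, and a negative contrast means a lower effect of CsA at 48 h. Of 10650 genes with a level above 4 on at least 3 arrays, the genes described here are the 1844 (17.3%) whose 3 pair differences at 12 h did not overlap the 3 at 48 h. In 889 of them (8.35% of the genes tested) the effect was higher at 48 h, and in 955 (8.97%) it was lower. These genes were chosen by the contrast itself, so their counts are a description and carry no test.

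The endoplasmic reticulum (ER) folds secreted and membrane proteins, and unfolded protein there engages the sensors IRE1, ATF6 and PERK. IRE1 splices the mRNA of the transcription factor XBP1, ATF6 is cleaved to a transcription factor, and both raise ER chaperones and the machinery that degrades misfolded protein. PERK phosphorylates eIF2alpha, as does the amino acid sensor GCN2, which slows translation and favours synthesis of ATF4, a factor that drives genes of amino acid supply, tRNA charging and stress signalling. In kidney tubule cells the unfolded protein response is a known companion of toxic injury.

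Promoters of genes from both branches are shown because these genes are described below and carry the elements that the branches' factors recognise. Promoter windows run from 250 bases before to 50 after a RefSeq start site on GRCh38.p14, and 8805 of the 10650 tested genes matched at least 1 window. The first element searched was the ER stress response element, which ATF6 and XBP1 recognise together with NF-Y: CCAAT and CCACG with 9 bases between them, on either strand. The second was the core of the C/EBP-ATF response element recognised by ATF4 with a C/EBP partner, TTGCATCA or its complement TGATGCAA. Capitals mark the elements, and each sequence reads 5′ to 3′ on the strand of its gene. HSPA5 lies at chr9:125241294-125241593, minus strand, HSP90B1 at chr12:103930160-103930459, plus strand, FICD at chr12:108515027-108515326, plus strand and CRELD2 at chr22:49918384-49918683, plus strand, whose element is shared with the window of the divergent gene ALG12. CHAC1 lies at chr15:40953221-40953520, plus strand and SLC1A4 at chr2:64989149-64989448, plus strand, and these carry the C/EBP-ATF core.
HSPA5: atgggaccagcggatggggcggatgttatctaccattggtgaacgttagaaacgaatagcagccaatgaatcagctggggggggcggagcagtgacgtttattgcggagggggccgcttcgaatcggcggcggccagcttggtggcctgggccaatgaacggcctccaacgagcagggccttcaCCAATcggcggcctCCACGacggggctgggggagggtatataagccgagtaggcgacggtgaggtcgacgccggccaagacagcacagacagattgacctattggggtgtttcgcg
HSP90B1: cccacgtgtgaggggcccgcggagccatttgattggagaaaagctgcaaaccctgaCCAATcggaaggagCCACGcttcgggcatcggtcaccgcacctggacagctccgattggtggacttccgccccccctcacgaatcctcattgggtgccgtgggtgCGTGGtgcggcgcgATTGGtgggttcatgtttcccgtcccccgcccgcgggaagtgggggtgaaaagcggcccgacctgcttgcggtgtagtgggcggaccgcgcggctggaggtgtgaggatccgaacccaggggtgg
FICD: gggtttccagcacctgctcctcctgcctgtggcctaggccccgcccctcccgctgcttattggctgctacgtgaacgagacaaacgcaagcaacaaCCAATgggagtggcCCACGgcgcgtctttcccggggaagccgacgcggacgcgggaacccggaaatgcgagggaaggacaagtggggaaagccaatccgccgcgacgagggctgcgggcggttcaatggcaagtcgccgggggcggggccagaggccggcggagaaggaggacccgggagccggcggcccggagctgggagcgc
CRELD2: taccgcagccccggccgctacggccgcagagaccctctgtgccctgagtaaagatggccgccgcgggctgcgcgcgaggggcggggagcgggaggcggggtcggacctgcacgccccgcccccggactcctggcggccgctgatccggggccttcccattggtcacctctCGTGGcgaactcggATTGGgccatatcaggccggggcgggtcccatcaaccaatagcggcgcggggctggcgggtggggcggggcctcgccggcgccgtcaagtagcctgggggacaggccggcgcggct
CHAC1: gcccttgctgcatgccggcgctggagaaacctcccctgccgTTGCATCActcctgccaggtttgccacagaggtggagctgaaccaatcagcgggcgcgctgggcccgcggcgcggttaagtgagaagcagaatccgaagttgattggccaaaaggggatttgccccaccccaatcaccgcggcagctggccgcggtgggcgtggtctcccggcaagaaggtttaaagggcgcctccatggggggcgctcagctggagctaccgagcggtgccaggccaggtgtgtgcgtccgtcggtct
SLC1A4: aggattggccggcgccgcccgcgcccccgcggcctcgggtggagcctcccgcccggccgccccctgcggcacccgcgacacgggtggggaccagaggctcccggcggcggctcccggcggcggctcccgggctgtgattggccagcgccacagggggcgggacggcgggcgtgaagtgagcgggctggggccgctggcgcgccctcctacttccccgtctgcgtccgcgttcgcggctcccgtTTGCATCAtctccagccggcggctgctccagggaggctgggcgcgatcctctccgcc

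The ER stress response element was present in 25 of the 27305 genes of the promoter table (0.0916%) and in 16 of the 8805 matched genes (0.182%). It was found in 11 of the 798 matched genes with a lower effect at 48 h (1.38%) and in 0 of the 740 with a higher effect. The C/EBP-ATF core was present in 295 of 27305 genes (1.08%), in 65 of the 8805 matched (0.738%), in 20 of the 798 with a lower effect (2.51%) and in 2 of the 740 with a higher effect (0.27%). Each motif was searched on its own, over both strands. A match is a description of these letters in a window and does not show that a factor bound there.

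The checks of the line and the arrays gave a mixed picture. The kidney epithelial factor PAX8 had levels from 10.67 to 11.34 and the epithelial genes KRT8, KRT18, KRT19 and EPCAM were above 10 on all 12 arrays. A further epithelial gene, CDH1, was lower and more variable, at 5.71 to 8.72. Defining proximal tubule genes LRP2, CUBN, AQP1, ANPEP, GGT1, SLC34A1 and SLC22A6 were below 4 on all 12 arrays, while DPP4, a brush border enzyme also made by other cells, was at 10.57 to 11.62. The labelled cell type was thus not borne out by most of its defining markers. Of markers of other cell types, PTPRC, CD3E, CDH5, VWF, PDGFRA, PDGFRB, NPHS1, WT1, SLC12A1 and SLC12A3 were below 4 on every array, while the matrix genes DCN (7.67 to 9.97) and LUM (7.61 to 9.88), the collecting duct gene AQP2 (4.23 to 4.57) and the endothelial gene PECAM1 (4.38 to 5.08) were above it on all 12. So were the distal nephron gene SCNN1A (7.3 to 7.8) and the podocyte genes SYNPO (5.6 to 7.0) and PODXL (5.7 to 6.7). The pericyte gene RGS5 (8.6 to 10.7) and the fibroblast gene THY1 (4.5 to 4.7) were too, while AQP3 was below 4 on 8 arrays. In bulk RNA such as this, a shift in the share of cells in a state and a shift in RNA per cell cannot be told apart. Same-numbered arrays deviated together from their group means at each time, with correlations across genes from 0.36 to 0.59 at 12 h and from 0.54 to 0.78 at 48 h.

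The 48 h arrays varied more than the 12 h arrays, and the third 48 h pair stood apart. Within groups, genes had a median standard deviation (SD) of 0.12 at 12 h in either arm, against 0.21 in controls and 0.29 under CsA at 48 h. The least similar arrays of any group, both CsA 48 h, correlated at 0.93. The median size of a pair difference was 0.12, 0.10 and 0.11 in the 3 pairs at 12 h, 0.13 and 0.13 in the first and second pairs at 48 h, and 0.24 in the third. The SD of the pair differences was larger at 48 h than at 12 h in 7834 of the 10650 genes. The probe set for the 3′ end of ACTB exceeded that for its 5′ end by 0.83 to 1.04 at 12 h and by 0.92 to 1.44 at 48 h, highest in CsA 48 h replicate 1. Each pair was left out in turn, and values without the third 48 h pair stand beside the larger contrasts that it moved by over 1.5 times. Leaving it out also raised the share of separated genes over all genes tested, from 8.97% to 14.0% lower and from 8.35% to 15.7% higher, since fewer differences overlap less often.

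No gene passed the test of the contrast. With limma, 0 of 10650 genes (0.0%) had a Benjamini-Hochberg adjusted p under 0.05, the smallest being 0.118 for MANF. The count at an unadjusted p under 0.05 was 967 (9.08%), 444 with a positive and 523 with a negative contrast. Over all genes tested the median contrast was -0.002, with 5275 above 0 and 5375 below. The same fit called 3 genes for the effect at 12 h, MANF, DNAJB9 and CREB3L2, and 0 for the effect at 48 h. Each of those 3 genes was higher under CsA at 12 h. When limma's variance trend and robust moderation were used, 2 genes passed the test of the contrast, MANF and DNAJB9. Without the third 48 h pair 6 genes passed, all with a lower effect at 48 h: CREB3L2, CTH, INHBE, MANF, SDF2L1 and SLC7A11. These 7 genes belong to the ER chaperone and ATF4 lists described next.

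**Figure D1:**
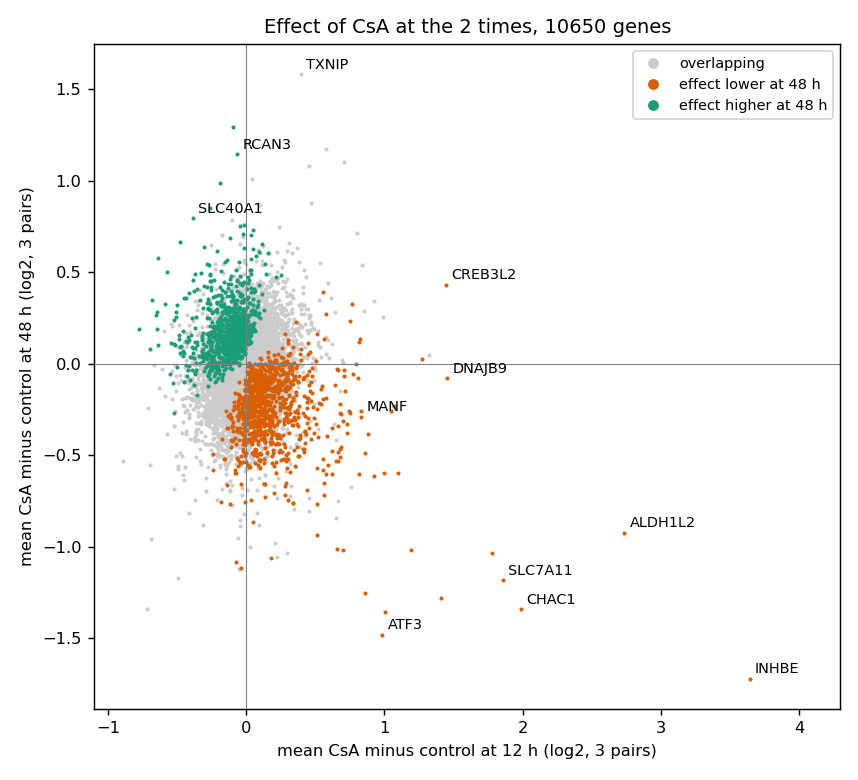
Mean effect of CsA in each of 10650 genes at 12 h (horizontal axis) and 48 h (vertical axis), both in log2 units over 3 pairs. Orange points are the 955 genes whose pair differences were lower at 48 h, green points the 889 that were higher, grey points the overlapping genes; named orange genes such as INHBE (3.64 at 12 h, -1.72 at 48 h) lie far to the right and below, while TXNIP (0.40 and 1.58) lies high but overlaps.

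Signs of the pair differences divided the 955 genes with a lower effect into 3 classes of similar size. In 281 the 3 differences were all above 0 at 12 h and all below 0 at 48 h, in 323 they were above 0 at 12 h and of mixed sign at 48 h, and in 292 they were mixed at 12 h and below 0 at 48 h. A further 17 stayed above 0 and 42 stayed below 0 at both times. The 889 genes with a higher effect divided likewise, with 285 below 0 at 12 h and above 0 at 48 h, 280 below 0 at 12 h and mixed at 48 h, and 282 mixed at 12 h and above 0 at 48 h. Their largest separations were smaller. The gap between the nearest differences of the 2 times exceeded 0.5 in 34 genes with a lower and 10 with a higher effect, and exceeded 1 in 8 and 0. At the edge of the choice, the nearest differences of HOXD11, which was included, were -0.1834 and -0.1833, and those of STARD3NL, which was not, were -0.0941 and -0.0943.

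Levels in the controls moved between the times as well. The median over the 955 genes of the control level at 48 h minus that at 12 h was 0.45, against 0.12 under CsA. Over the 889 genes these medians were -0.35 in controls and -0.06 under CsA. Both were 0.01 over all genes tested, where the 3 control levels at 12 h did not overlap the 3 at 48 h in 5319 genes (49.9%). Of the 1844 genes, 851 had further probe sets, 1378 in all, of which 359 were also separated in the same direction and 15 in the opposite one. In 31 of the genes with a higher effect and 55 of those with a lower effect at least 1 array was below 4, so that low values bear on them.

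The ER chaperone and unfolded protein response list held DNAJB9, HERPUD1 and MANF, which were among the 12 genes with the widest gaps in the lower direction. Of its 36 tested genes, 23 had a lower effect of CsA at 48 h and 0 a higher effect (8.97% and 8.35% of all genes tested), and the contrast was below 0 in 34. The median contrast was -0.39. At 12 h the median pair differences over the list were 0.56, 0.32 and 0.37, and at 48 h they were 0.02, -0.05 and 0.01. Thus the median effect was positive in every 12 h pair and near 0 in every 48 h pair. The controls were at higher levels at 48 h than at 12 h by a median of 0.85, and the CsA arrays by 0.46. Leaving out the third 48 h pair left the median contrast at -0.38, with 25 of 36 genes lower, against 14.0% lower and 15.7% higher over all genes in that setting. SYVN1 and TXNDC5 of this list were not tested.

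MANF, an ER protein that binds the chaperone BiP and can be secreted, had the smallest adjusted p. Its control levels at 12 h were 10.55, 10.10 and 10.44 and its levels under CsA 11.42, 10.98 and 11.17. At 48 h the control levels were 13.05, 12.32 and 10.69 and those under CsA 12.79, 12.00 and 10.41. Every 12 h pair was higher under CsA and every 48 h pair lower, by 0.87, 0.88 and 0.74 against -0.26, -0.33 and -0.28. The contrast was -1.12 (SE 0.10, adjusted p = 0.118 with limma), and over the alternatives it lay between -1.17 and -1.09 with an adjusted p from 0.00968 to 1.0. The third pair at 48 h had much lower levels than the other two in both arms, yet the same difference.

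DNAJB9, a J-domain co-chaperone of BiP that restrains IRE1, was at 8.87, 8.29 and 8.54 in controls and 10.28, 10.00 and 9.78 under CsA at 12 h. At 48 h it was at 12.70, 12.51 and 9.89 in controls and 12.79, 12.46 and 9.60 under CsA. The arms were separate at 12 h and close within every pair at 48 h. Its contrast was -1.53 (SE 0.16, adjusted p = 0.175 with limma), with an adjusted p from 0.0386 to 1.0 over the alternatives.

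SDF2L1, a member of ER chaperone complexes, had pair differences of 1.03, 1.01 and 1.17 at 12 h and -0.35, -0.52 and 0.17 at 48 h. Its contrast was -1.30 (SE 0.19), and -1.50 without the third 48 h pair (SE 0.11, adjusted p = 0.0352 with limma, range over alternatives 0.0352 to 1.0). CREB3L2, a transcription factor held in the ER membrane until it is cleaved, differed from these genes in keeping a positive effect. Its pair differences were 1.35, 1.47 and 1.52 at 12 h, against 0.22, 0.33 and 0.75 at 48 h. The contrast was -1.01 (SE 0.16), and -1.17 without the third 48 h pair (SE 0.10, adjusted p = 0.0468 with limma, range 0.0468 to 1.0).

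HSPA5 encodes BiP, an Hsp70 chaperone of the ER lumen. It was at 14.00, 13.16 and 13.67 in 12 h controls and 14.70, 14.22 and 14.55 under CsA. At 48 h it was at 15.61, 15.49 and 14.42 in controls and 15.61, 15.28 and 13.49 under CsA. CsA was above control in each 12 h pair and at or below it in each 48 h pair. The contrast was -1.27 (SE 0.25), and -0.99 without the third 48 h pair, whose difference of -0.93 was the lowest. HSP90B1, the ER member of the Hsp90 family, had pair differences of 0.47, 0.60 and 0.57 at 12 h and -0.002, -0.28 and -0.08 at 48 h. HYOU1, a large Hsp70 relative that exchanges nucleotide on BiP, had differences of 0.91, 0.60 and 0.90 against -0.14, 0.06 and -0.15. Neither gene's times overlapped.

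Several genes of ER quality control and folding catalysis were also lower at 48 h without overlap, while DERL1, DERL3, SIL1 and TXNDC11 overlapped. XBP1 had a contrast of -1.14 (SE 0.20) and HERPUD1, a scaffold of ER-associated degradation, -1.70 (SE 0.37), with 48 h differences of -0.03, -0.23 and -1.52 for the latter. SEL1L, the adaptor of the HRD1 ubiquitin ligase, had a contrast of -0.72, DNAJC3, which inhibits eIF2alpha kinases, -0.74, and the disulfide isomerase PDIA4 -0.69. Smaller contrasts were those of the lectin chaperones CALR (-0.26) and CANX (-0.17) and of PDIA3 (-0.29) and PDIA6 (-0.36). DNAJC10, CANX and CREB3L2 were above 0 in all 6 pairs although their times did not overlap.

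Some members of the list overlapped between the times and remained above 0 in every pair. They were the translocon genes SEC61A1 and SEC61B, the translocon-associated SSR1, the disulfide isomerase P4HB, the degradation component SELENOS, WFS1, and PPIB, the cyclophilin of the ER. SEC61A1 had differences of 0.46, 0.44 and 0.35 at 12 h and 0.24, 0.34 and 0.38 at 48 h, with a contrast of -0.09 (SE 0.10). PPIB had differences of 0.73, 0.38 and 0.35 at 12 h and 0.14, 0.03 and 0.40 at 48 h, with a contrast of -0.29 (SE 0.16). ERN1, which encodes IRE1, overlapped because of its 12 h values (0.61, -0.15 and 0.17), and the third 48 h pair was at -2.84 while the others were at 0.0 and -0.10, so that its contrast of -1.19 was -0.26 without that pair. These genes, except PPIB, were chosen for this account after their values were seen.

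**Figure D2:**
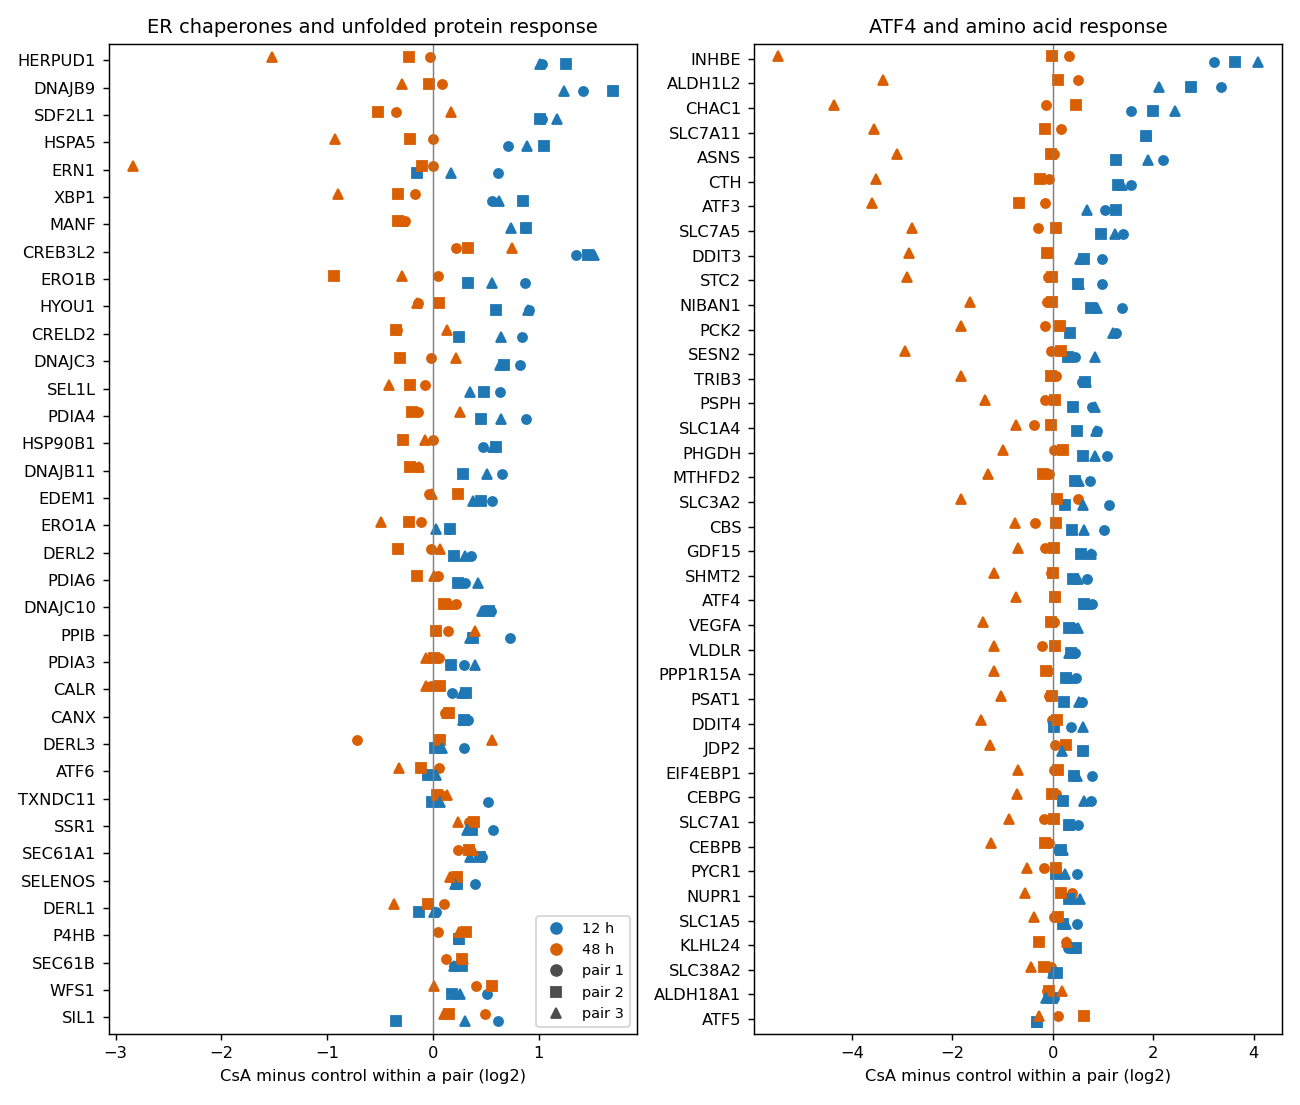
Pair differences (CsA minus control, log2) of the 36 tested ER chaperone genes (left) and the 40 tested ATF4 genes (right), ordered by contrast. Blue is 12 h and orange 48 h, and circles, squares and triangles are pairs 1, 2 and 3. Most blue symbols lie above 0, most orange circles and squares lie near 0, and the orange triangles (the third 48 h pair) reach -5.47 in INHBE among the ATF4 genes.

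All 16 tested genes with an ER stress response element had a contrast below 0, against 5375 of all 10650 genes tested, and their median was -0.38. Of the 16, 11 had a lower effect at 48 h without overlap, against 8.97% of all genes. Among ER list genes with a promoter window the element was present in 8 of 33 (24.2%), and in 8 of the 22 with a lower effect (36.4%). These 8 were HSPA5, HSP90B1, CALR, CANX, PDIA6, CRELD2, XBP1 and ERO1B. Outside the list it was present in ALG12, FICD and TRIM5, which had a lower effect, and in EIF2A, SERP1, SYNPO, TMEM120A and ZNF17, which overlapped. FICD, the enzyme that AMPylates BiP, had differences of 0.84, 2.16 and 0.82 at 12 h and 0.35, 0.0 and -0.28 at 48 h. The windows of ALG12 and CRELD2, and of EIF2A and SERP1, share an element between divergent starts, so these genes are not separate occurrences.

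**Figure D3:**
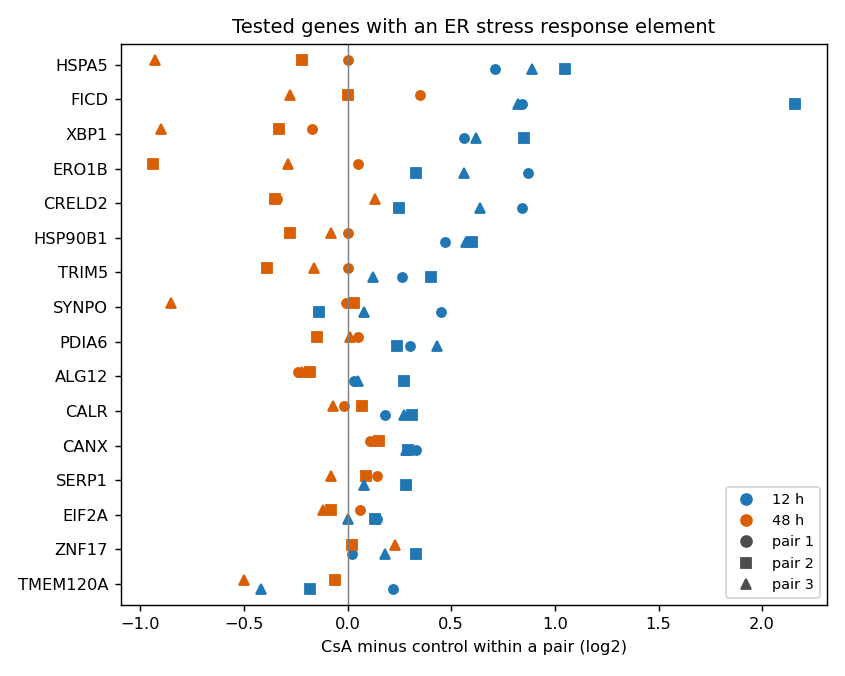
Pair differences (CsA minus control, log2) of the 16 tested genes with an ER stress response element in a promoter window, ordered by contrast, lowest at the top. Blue is 12 h and orange 48 h; circles, squares and triangles are pairs 1, 2 and 3. Every blue symbol lies right of every orange symbol in 11 of the 16 genes; SYNPO, SERP1, EIF2A, ZNF17 and TMEM120A overlap.

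ATF4 and the genes of the amino acid response had the lowest median contrast of the lists tested. Of 40 tested members 33 had a lower effect of CsA at 48 h (8.97% of all genes tested) and 1, ATF5, a higher effect. The median contrast was -0.99, and 38 contrasts were below 0. The median pair differences were 0.76, 0.40 and 0.59 at 12 h, against -0.05, 0.02 and -1.24 at 48 h. Effects in the first and second 48 h pairs were thus near 0, and the third pair was far below. Without that pair the median contrast was -0.57, and 33 members had a lower effect, against 14.0% of all genes in that setting. Control levels were higher at 48 h than at 12 h by a median of 1.73, and CsA levels by 0.46. The list has 45 genes, of which ADM2, FGF21, GPT2, MTHFD1L and SLC6A9 were not tested.

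INHBE, an activin beta subunit, showed the widest gap. It was at 5.56, 2.86 and 4.31 in 12 h controls and at 8.77, 6.49 and 8.40 under CsA. At 48 h it was at 12.19, 11.71 and 11.25 in controls and at 12.50, 11.71 and 5.78 under CsA. CsA was above control in every 12 h pair, close to it in the first and second 48 h pairs, and far below it in the third. The contrast was -5.36 (SE 1.44, adjusted p = 0.520 with limma), and -3.49 without the third 48 h pair (SE 0.26, adjusted p = 0.0352, range over alternatives 0.0352 to 1.0).

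SLC7A11, the cystine transporter subunit, was at 7.96, 6.55 and 7.98 in 12 h controls and at 9.82, 8.40 and 9.84 under CsA. Its 48 h levels were 11.32, 11.56 and 11.27 in controls and 11.49, 11.41 and 7.70 under CsA. The 12 h differences were close to each other, at 1.85, 1.85 and 1.86, while the 48 h differences ran from 0.17 to -3.57. The contrast was -3.04 (SE 0.92), and -1.85 without the third 48 h pair (SE 0.12, adjusted p = 0.0352 with limma, range 0.0352 to 1.0). CTH, which makes cysteine from cystathionine, had differences of 1.56, 1.29 and 1.37 at 12 h and -0.07, -0.25 and -3.53 at 48 h. Its contrast was -2.69 (SE 0.86), and -1.57 without the third 48 h pair (SE 0.12, adjusted p = 0.0352 with limma, range 0.0352 to 1.0).

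Other effectors of this response behaved alike across pairs. ASNS, asparagine synthetase, had 12 h differences of 2.19, 1.26 and 1.89 and 48 h differences of 0.03, -0.04 and -3.11. CHAC1, which degrades glutathione, had 1.55, 2.00 and 2.42 at 12 h and -0.13, 0.46 and -4.36 at 48 h. ALDH1L2, a mitochondrial folate enzyme, had 3.35, 2.74 and 2.12 at 12 h and 0.50, 0.10 and -3.38 at 48 h. In all 3 genes the lowest 48 h value by far was that of the third pair, and the contrast was -1.78, -1.82 and -2.44 without it, against -2.82, -3.33 and -3.66 with it.

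The transcription factors ATF4, ATF3, DDIT3, CEBPB and CEBPG had a lower effect without overlap too. Among other transcription regulators of the list, JDP2 and NUPR1 overlapped and ATF5 had a higher effect. ATF4 itself had 12 h differences of 0.78, 0.61 and 0.65 and 48 h differences of 0.05, 0.04 and -0.74. ATF3 had 1.04, 1.25 and 0.68 against -0.16, -0.67 and -3.61. DDIT3, which encodes the pro-apoptotic factor CHOP, had 0.97, 0.61 and 0.53 against -0.09, -0.11 and -2.86. Control levels of DDIT3 were higher by 4.81 at 48 h than at 12 h, and those of ATF3 by 5.35. The pseudokinase TRIB3 (contrast -1.23, SE 0.48) and the secreted proteins STC2 (-1.67, SE 0.74) and GDF15 (-0.96, SE 0.20) were separated as well. Without the third 48 h pair the contrasts of ATF3, DDIT3, TRIB3 and STC2 were -1.40, -0.80, -0.61 and -0.72, against -2.47, -1.72, -1.23 and -1.67 with it.

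Enzymes and carriers of amino acid supply filled out the list. The serine synthesis genes PHGDH, PSAT1 and PSPH had contrasts of -1.09, -0.80 and -1.15, and the mitochondrial one-carbon genes SHMT2 and MTHFD2 -0.92 and -1.08. Without the third 48 h pair these values were -0.72, -0.48, -0.72, -0.53 and -0.69 in the same order. Among carriers, SLC7A5 had -2.21, SLC1A4 -1.12, SLC7A1 -0.72 and SLC1A5 -0.39, and without that pair -1.31, -0.94, -0.45 and -0.24. SLC3A2, the heavy chain partner of SLC7A5 and SLC7A11, overlapped because its first 48 h difference (0.49) exceeded its second 12 h difference (0.23). DDIT4, JDP2, PYCR1, NUPR1 and ALDH18A1 also overlapped. ATF5 went the other way, with -0.33, -0.31 and -0.31 at 12 h and 0.11, 0.62 and -0.28 at 48 h.

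**Figure D4:**
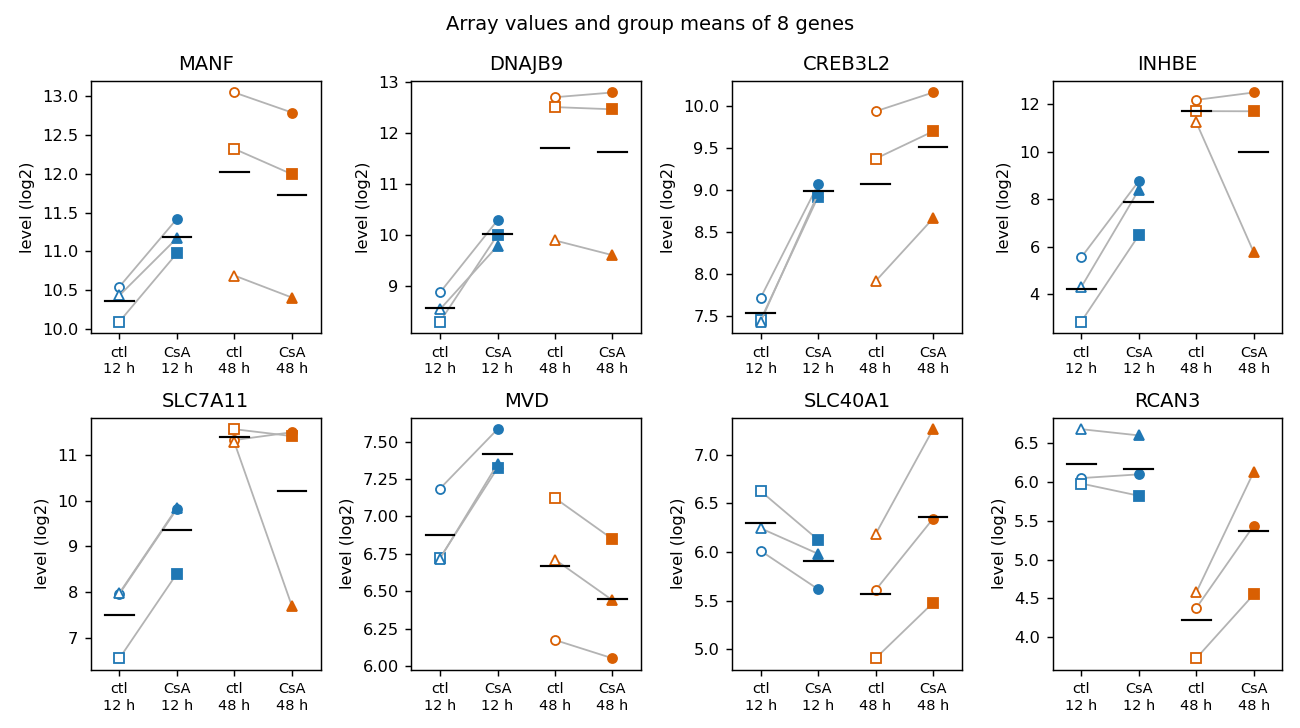
Log2 levels of 8 genes on each of the 12 arrays. Open symbols are controls and filled symbols CsA, circles, squares and triangles are replicates 1, 2 and 3, grey lines join pairs and black bars are group means; each panel has its own vertical scale, which does not start at 0. In MANF, DNAJB9, INHBE and SLC7A11 the lines go up at 12 h, and in INHBE and SLC7A11 the 48 h triangle under CsA (5.78 and 7.70) lies far below the other 2.

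The C/EBP-ATF core was present in 5 of the 31 ATF4 list genes with a promoter window (16.1%): CEBPG, CHAC1, JDP2, SLC1A4 and SLC1A5. Of all 65 tested genes with the core, 41 had a contrast below 0, against 5375 of all 10650, and their median was -0.16. A lower effect was found in 20 of the 65 and a higher one in 2, against 8.97% and 8.35% of all genes. The 20 with a lower effect included, besides list members, the tRNA synthetases AARS1, CARS1, IARS1, NARS1 and TARS1, the aminotransferase BCAT1 (contrast -1.06, SE 0.41, and -0.55 without the third 48 h pair) and HERPUD1. The 2 with a higher effect were LYRM4 (0.30) and MYLK (0.24). The ER stress response element was present in 0 of the 31 ATF4 genes.

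Cytosolic aminoacyl-tRNA synthetases, which charge tRNAs and include known ATF4 targets, were separated in 11 of 17 tested genes, all with a lower effect at 48 h (8.97% of all genes tested). The median contrast was -0.54, and -0.29 without the third 48 h pair, where 11 had a lower and 1 a higher effect, against 14.0% and 15.7% of all genes. Median differences were 0.33, 0.29 and 0.24 at 12 h, against 0.02, -0.03 and -0.74 at 48 h. AARS1 was at 9.35, 8.79 and 9.29 in 12 h controls and 10.29, 9.46 and 10.25 under CsA, and at 11.79, 11.39 and 10.52 in 48 h controls and 11.84, 11.31 and 9.08 under CsA. CsA was above control in each 12 h pair, close to it in the first and second 48 h pairs and below it in the third. WARS1 (contrast -1.02), YARS1 (-0.98), GARS1 (-1.19), CARS1 (-1.15) and SARS1 (-0.71) were also separated. Without the third 48 h pair these 5 contrasts were -0.64, -0.60, -0.69, -0.59 and -0.40, and that of AARS1 was -0.87 against -1.35 with it. HARS1, RARS1, KARS1, FARSA, FARSB and VARS1 overlapped, with contrasts between -0.31 and 0.19.

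Cholesterol synthesis and uptake genes had a median difference above 0 in every 12 h pair and below 0 in every 48 h pair. Of 19 tested genes, 14 had a lower effect (73.7%) and 1, PMVK, a higher effect (5.26%), against 8.97% and 8.35% of all genes tested. The median contrast was -0.45. In 10 of the 19 genes the differences were above 0 in every 12 h pair and below 0 in every 48 h pair or the reverse, against 566 of all 10650 genes. Median differences were 0.16, 0.13 and 0.18 at 12 h, against -0.13, -0.19 and -0.56 at 48 h. Without the third 48 h pair the median contrast was -0.29, and 15 had a lower and 1 a higher effect, against 14.0% and 15.7% of all genes. The median change in level from 12 h to 48 h was -0.21 in controls and -0.71 under CsA.

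MVD, which makes isopentenyl diphosphate from mevalonate diphosphate, was at 7.19, 6.72 and 6.72 in 12 h controls and 7.58, 7.32 and 7.35 under CsA. At 48 h it was at 6.17, 7.12 and 6.71 in controls and 6.05, 6.85 and 6.44 under CsA. CsA was above control in each 12 h pair and below it in each 48 h pair, and the contrast was -0.77 (SE 0.11, adjusted p = 0.274 with limma). INSIG1, which retains the SREBP complex in the ER, had differences of 0.25, 0.36 and 0.37 at 12 h and -0.06, -0.26 and -0.30 at 48 h. ACAT2, the cytosolic thiolase at the start of the pathway, had 0.19, 0.03 and 0.17 against -0.65, -0.23 and -0.75. STARD4, a sterol carrier, had a contrast of -0.86 and HSD17B7 of -0.72, the latter -0.47 without the third 48 h pair. LSS, SQLE, HMGCS1, FDPS, IDI1, MSMO1, NSDHL, SC5D and MVK were separated in the same direction, with contrasts from -0.63 to -0.35, and from -0.42 to -0.18 without that pair.

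**Figure D5:**
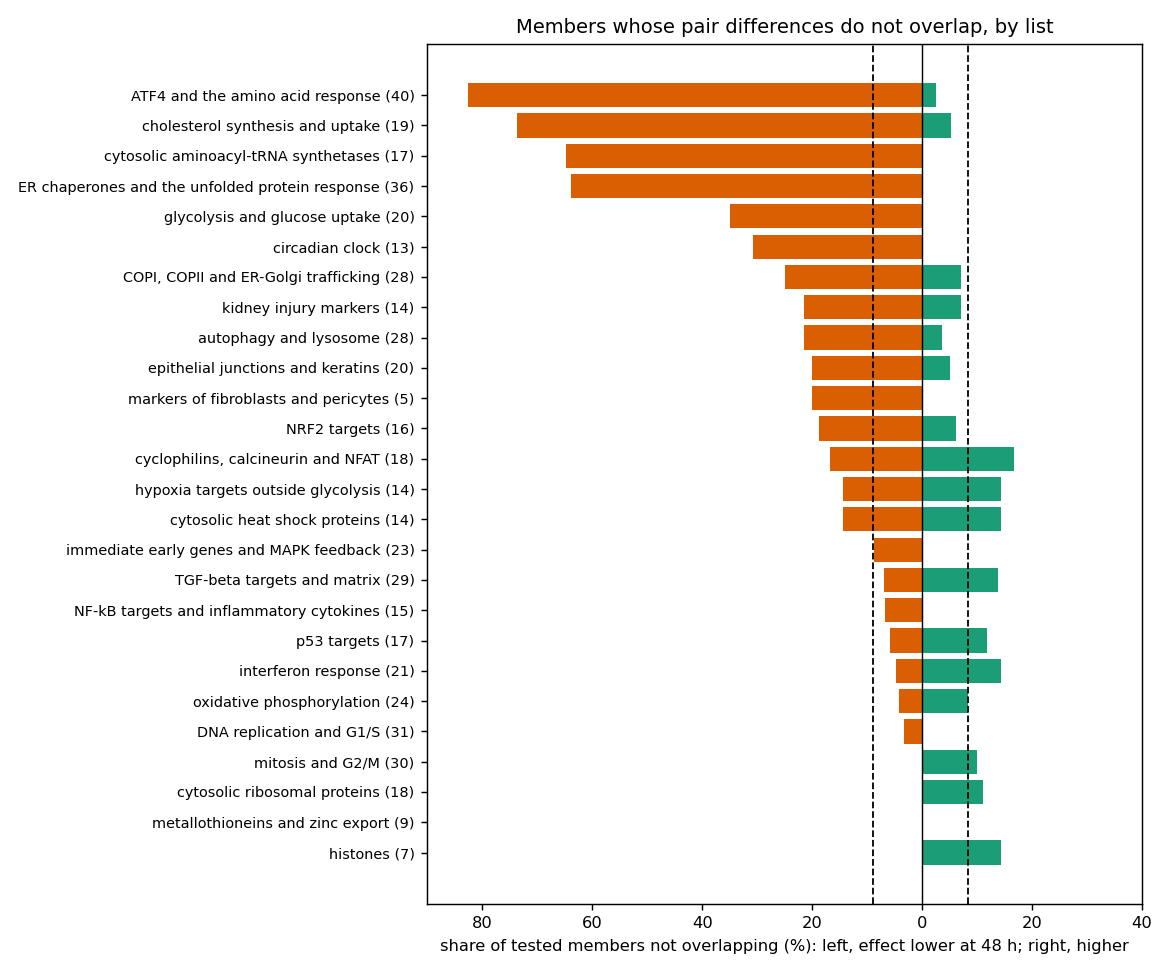
Share of tested members (%) of each list whose pair differences did not overlap, drawn left for a lower and right for a higher effect of CsA at 48 h, with the number tested in brackets. Dashed lines mark the shares over all 10650 genes, 8.97% lower and 8.35% higher. The left bars reach 82.5% for the ATF4 list, 73.7% for cholesterol synthesis, 64.7% for tRNA synthetases and 63.9% for ER chaperones.

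Carriers between ER and Golgi had separated genes on both sides, more of them with a lower effect. Of 28 tested coat and cargo receptor genes 7 had a lower and 2 a higher effect, against 8.97% and 8.35% of all genes tested. The share with a lower effect was thus above that of all genes, and the share with a higher effect was not. The median contrast was -0.02. SEC24D, a cargo-binding subunit of the COPII coat, had differences of 0.89, 0.74 and 0.52 at 12 h and 0.16, -0.26 and -0.35 at 48 h, with a contrast of -0.87 (SE 0.17). SEC23B, its partner in the inner coat, had a contrast of -0.48 (-0.31 without the third 48 h pair), and MCFD2, a cargo adaptor, -0.25. The COPI subunit COPZ1 and the retrieval receptor KDELR3 had a higher effect, with contrasts of 0.19 and 0.15. LMAN1, a lectin that carries glycoproteins out of the ER, overlapped and was above 0 in every pair, with 0.43, 0.24 and 0.15 at 12 h and 0.39, 0.32 and 0.18 at 48 h.

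Glycolysis and glucose uptake genes had a median contrast of -0.15. Of 20 tested, 7 had a lower effect (35.0%) and 0 a higher one, against 8.97% and 8.35% of all genes. The glucose carrier SLC2A3 had differences of 0.19, 0.07 and 0.04 at 12 h and -0.23, -0.22 and -1.27 at 48 h. Its contrast of -0.67 was -0.32 without the third pair. ALDOA and PGK1, enzymes of the middle of the pathway, had contrasts of -0.25 and -0.24 (SE 0.11 each). Of 28 autophagy and lysosome genes 6 had a lower (21.4%) and 1 a higher effect (3.57%), against the same shares of all genes, with a median contrast of -0.08. WIPI1, which acts in autophagosome formation, had differences of 0.95, 0.63 and 0.42 against 0.22, -0.02 and -0.29. The lysosomal cholesterol exporter NPC1 had 0.05, 0.14 and 0.22 against -0.27, -0.20 and -0.91, with a contrast of -0.60 (-0.38 without the third 48 h pair). MAP1LC3B, a protein of the autophagosome membrane, had a contrast of -0.39.

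Of the clock genes, DBP was among the 12 widest gaps, as was TUBE1, which encodes epsilon tubulin (contrast -2.12, SE 0.72, and -1.19 without the third 48 h pair) and belongs to none of the lists. Of 13 tested clock genes, 4 had a lower effect at 48 h (30.8%) and 0 a higher one, against 8.97% and 8.35% of all genes. The median contrast was -0.30. DBP, a clock output factor, was at 2.66, 2.64 and 2.58 in 12 h controls and 2.75, 2.74 and 2.94 under CsA, all below the level of 4 used as the filter. At 48 h it was at 6.07, 4.66 and 3.68 in controls and 5.25, 3.21 and 2.75 under CsA, so that it passed the filter only through the first and second controls and the first CsA array at 48 h. Its contrast was -1.25 (SE 0.19). CRY1 had a contrast of -0.37 and BHLHE40 of -0.44, the latter -0.28 without the third 48 h pair.

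Among genes with a higher effect at 48 h, SLC40A1 had the widest gap. It encodes ferroportin, the exporter of cellular iron, and was at 6.01, 6.63 and 6.24 in 12 h controls and 5.62, 6.12 and 5.98 under CsA. At 48 h it was at 5.61, 4.91 and 6.18 in controls and 6.34, 5.48 and 7.26 under CsA. Every 12 h pair was lower under CsA and every 48 h pair higher. The contrast was 1.18 (SE 0.16, adjusted p = 0.274 with limma), and 1.04 without the third 48 h pair.

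RCAN3, a regulator of calcineurin, came next and lay near 0 at 12 h, with differences of 0.05, -0.16 and -0.08. Its 48 h levels were 4.38, 3.73 and 4.58 in controls and 5.44, 4.55 and 6.13 under CsA, against 6.05, 5.98 and 6.68 in 12 h controls. Control levels were thus lower at 48 h than at 12 h, and less so under CsA. The contrast was 1.21 (SE 0.19, adjusted p = 0.314 with limma), and 1.00 without the third 48 h pair.

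Several other genes were lower under CsA in all 12 h pairs and higher in all 48 h pairs. SHROOM2, which organises apical actin and myosin, had differences of -0.70, -0.61 and -0.65 at 12 h and 0.13, 0.46 and 0.21 at 48 h. CRABP2, a carrier of retinoic acid, had -0.23, -0.54 and -0.38 against 0.48, 0.40 and 0.50. ZDHHC23, a palmitoyltransferase, had -0.34, -0.46 and -0.55 against 0.32, 0.34 and 0.42. Contrasts of these genes were 0.92, 0.84 and 0.81, each with an SE of 0.12 or less and an adjusted p of 0.274 with limma. PLCE1 (contrast 0.82), RTKN2 (0.93), SNRNP200 (0.86), B4GALNT1 (0.78), ELFN2 (0.76) and DKFZP586I1420 (1.18, SE 0.45) completed the 12 widest gaps together with CCNF. RTKN2 was near the filter level of 4 at 48 h, at 3.73, 3.75 and 4.49 in controls and 4.36, 3.79 and 4.68 under CsA. SNRNP200 was below 4 on 1 array. The contrast of DKFZP586I1420 was 0.60 without the third 48 h pair, where its difference was 2.13 against 0.42 and 0.41 in the others.

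Cell division genes were lower at 48 h than at 12 h in both arms. The median change over 30 mitosis genes was -1.19 in controls and -1.07 under CsA. CCNF, cyclin F, was at 8.34, 8.49 and 8.30 in 12 h controls and 6.03, 6.33 and 7.08 in 48 h controls, and its pair differences were -0.23, -0.20 and -0.19 at 12 h, against 0.53, 0.81 and 0.51 at 48 h. Its contrast was 0.83 (SE 0.12). Of 30 tested mitosis genes, PLK1 (contrast 0.58), CENPF (0.21) and HMMR (0.32) had a higher effect (10.0%) and 0 a lower one. Over all genes tested these shares were 8.35% and 8.97%. In PLK1, CENPF and HMMR the third 48 h control was the highest. The median contrast of the list was 0.07, and -0.01 without the third 48 h pair. In that setting 3 were higher and 6 lower of 30, against 15.7% and 14.0% of all genes, and the contrast of HMMR was 0.13. The DNA replication list turned on that pair. Its median differences were -0.52, -0.10 and 0.67 in the 3 pairs at 48 h. With all pairs its median contrast was -0.01, and 1 of 31 genes was lower (3.23%) and 0 higher, against 8.97% and 8.35% of all genes. When the third pair was left out the median contrast was -0.27, with 11 lower (35.5%) and 1 higher (3.23%), against 14.0% and 15.7% of all genes. CCNE2, cyclin E2, chosen after its values were seen, had 48 h differences of -0.84, -0.41 and 2.19 and a contrast of 0.49, which was -0.45 without the third pair.

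TXNIP, an inhibitor of thioredoxin and of glucose uptake, had the largest positive 48 h mean among the genes named but overlapped. It was at 8.27, 8.58 and 9.15 in 12 h controls and 8.78, 8.83 and 9.58 under CsA. Its 48 h levels were 3.44, 3.19 and 3.90 in controls and 3.77, 2.96 and 8.55 under CsA. Only the third CsA array at 48 h was far from the other 48 h arrays, and the contrast was 1.19 (SE 1.18) with that pair and -0.35 (SE 0.19) without it.

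Kidney injury genes followed no common direction, with a median contrast of 0.04. Of 14 tested, 1 was higher (7.14%) and 3 lower (21.4%), against 8.35% and 8.97% of all genes. SOX9, a factor of tubule repair, was at 8.59, 8.93 and 8.46 in 12 h controls and 4.87, 4.99 and 4.91 in 48 h controls. Its pair differences were -0.36, -0.27 and -0.15 at 12 h, against 0.27, 1.02 and 1.26 at 48 h, and the contrast was 1.11 (SE 0.25). HAVCR1, which encodes KIM-1, had a contrast of -0.09 (SE 0.16), and LCN2, which encodes NGAL, 0.42 (SE 0.28), with overlap in both.

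Of 18 tested cyclophilin, calcineurin and NFAT genes, which include the targets of CsA, 3 had a higher (16.7%) and 3 a lower (16.7%) effect, against 8.35% and 8.97% of all genes, and the median contrast was -0.03. PPIA, cyclophilin A, the main cytosolic partner of cyclosporine, had 12 h differences of 0.03, -0.03 and -0.02, 48 h differences of -0.02, 0.04 and -0.11, and a contrast of -0.02 (SE 0.10). PPIF, the mitochondrial cyclophilin, had a contrast of -0.04 (SE 0.11). The catalytic calcineurin subunit PPP3CB had -0.11, -0.19 and -0.34 at 12 h against -0.01, 0.20 and 0.20 at 48 h. The regulatory subunit PPP3R1, chosen after its values were seen, had -0.05, -0.18 and 0.01 against -0.84, -0.34 and -2.08, with a contrast of -1.01 (SE 0.41), which was -0.52 without the third 48 h pair. RCAN1, a calcineurin-responsive gene, overlapped, with a contrast of -0.53 (SE 0.38) that was -0.07 without the third 48 h pair, where its difference was -1.39.

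In the remaining lists, the counts of separated genes stand against 8.35% higher and 8.97% lower over all genes. Inflammatory genes had 1 of 15 lower (TNFAIP3, contrast -0.53), interferon genes 3 higher and 1 lower of 21 (PSMB9 at 0.71 and IFIT1 at -0.38 among them), and immediate early genes 2 lower of 23 (DUSP1 at -0.46). NRF2 targets had 1 higher and 3 lower of 16, with HMOX1 at -0.66 (-0.35 without the third 48 h pair), and hypoxia targets outside glycolysis 2 and 2 of 14, with ANGPTL4 at 0.57 and PLOD2 at -0.50. ANGPTL4 was below 4 on every 48 h array (3.60 to 3.86 in controls, 3.79 to 3.89 under CsA) and passed the filter only through 12 h arrays. Matrix and TGF-beta genes had 4 higher and 2 lower of 29, with CCN2 at -0.61 and TGFB1 at 0.46 (0.28 without that pair). Junction and keratin genes had 1 higher and 4 lower of 20, with PKP2 at -0.75. Of 17 p53 targets 2 were higher and 1 lower, with TP53INP1 at 0.45 and GADD45A at -1.04, which was -0.34 without that pair. Heat shock proteins of the cytosol were 2 higher and 2 lower of 14. Ribosomal proteins were 2 higher of 18, oxidative phosphorylation genes 2 higher and 1 lower of 24, histones 1 higher of 7 and metallothioneins 0 of 9. Median contrasts of these lists lay between -0.17 and 0.23.

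Markers of other cell types were examined in the same way. Their lists held at most 5 tested genes, and their counts stand against 8.97% lower and 8.35% higher over all genes. Of 5 tested fibroblast and pericyte genes, LUM had a lower effect, with differences of -0.003, 0.14 and 0.05 at 12 h and -0.47, -0.11 and -0.22 at 48 h, while PDGFRA and PDGFRB were below 4 on every array. Median differences of that list were between -0.19 and 0.11 at 12 h and between -0.23 and -0.08 at 48 h. RGS5 of that list was below 0 in every 48 h pair (-0.51, -0.37 and -0.08) and overlapped. Of 3 tested distal nephron genes AQP2 had a lower effect (contrast -0.16, SE 0.10), while both tested podocyte genes and PECAM1, the tested endothelial gene, overlapped, and 0 of 8 leukocyte genes were tested. DPP4 of the proximal tubule list had a lower effect (contrast -0.33, SE 0.16). The part of these genes in the results was not tested. The remaining genes fixed for naming overlapped between the times, namely PRKCB, PLA1A, SLC44A5, DORIP1, NAV3 and ZBED2, except SLN, whose contrast was 0.43 (SE 0.12). At 48 h SLN was at 3.35, 4.04 and 8.06 in controls and 3.35, 3.96 and 8.24 under CsA. Its first and second 48 h differences were thus between levels near or below 4.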

How the data were processed

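Messenger RNA of HK-2 cells was measured on 12 Affymetrix arrays. The values are on a log2 scale, read as such from their range of 0.68 to 16.0, and the authors made them with GCRMA, which the submitters' processing notes name. This method corrects background, normalises by quantiles and summarises probe sets, its version is not given in the sources used here, and the log2 values were used as deposited. Of 54675 probe sets, 62 were controls, 41091 had 1 gene symbol, 1801 several and 11721 none, per the platform annotation. Each of 19775 symbols was represented by its brightest probe set on average, and 10650 genes were above 4 on at least 3 arrays.

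Pair differences were fitted with limma 3.58.1 in R 4.3.3, as 3 differences per time sharing a spread with 4 residual degrees of freedom, using eBayes without trend and a two-sided, Benjamini-Hochberg adjusted threshold of 0.05. The pairing comes from the data: same-numbered CsA and control arrays correlated in their deviations at 0.36, 0.52, 0.59, 0.78, 0.54 and 0.74, and other combinations at 0.07 or below. SE values are limma's. The fit was tested on simulated data with the same spread at both times, which does not cover the larger spread seen at 48 h. Named genes were the 12 widest gaps and 6 largest statistics in each direction, the 3 largest statistics of each list and a short fixed list; further list members and motif genes were named after their values were seen. Members and gene lists were chosen with earlier results of these data known, so no list is independent evidence and no set test was run. Alternatives changed the pairing, moderation, weights, filter, probe sets, centring and each pair in turn. Arrays have no read depth, and their number limits precision.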

Additional observations from a re-analysis of the deposited data

Results flagged for a closer look

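In 2 lists the median pair difference lay above 0 in every 12 h pair and below 0 in every 48 h pair. The cholesterol synthesis and uptake list had a median contrast of -0.45 over 19 genes. The autophagy and lysosome list had a median contrast of -0.08 over 28 genes, with medians of -0.01, -0.01 and -0.12 at 48 h. The difference between the times was not tested for either list, since no set test was run.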

How the results depend on the processing

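The count of genes past the threshold for the contrast was 0, and 2 with a variance trend and robust moderation. Leaving out each pair gave between 0 and 6, the latter without the third 48 h pair. With no replicate block (unpaired arrays) the count was 0, the smallest adjusted p 1.0 and 164 genes had an unadjusted p under 0.05. The genes whose pair differences do not overlap, 1844, became 4779 with no filter on low values (938 higher and 3841 lower), and between 2625 and 3776 when a pair was left out, where 2 differences against 3 overlap less often by construction. The 3 genes called at 12 h became 0 with no replicate block, 8 with the variance trend, 35 with weights for each time, 0 with no filter, and between 0 and 38 without a pair, 38 being without the third 48 h pair. Contrasts changed sign as pairs were left out for TXNIP (-0.35 to 2.09), MT1X (-0.02 to 0.35), PPIA (-0.06 to 0.02), HAVCR1 (-0.24 to 0.03), SLC44A5 (-0.02 to 0.71), DORIP1 (-0.17 to 0.68) and ZBED2 (-0.80 to 0.29), and DORIP1 was at -0.09 with probe sets averaged. The cause was not tested. Of 1669 values of 120 named genes 1653 kept direction and side of the threshold. Of 364 list medians 361 moved by less than the spread of the list's median pair differences, a rule that does not require the sign to be kept. Without the third 48 h pair the mitosis median went from 0.07 to -0.01 and the kidney injury median from 0.04 to -0.02. The ATF4 median, which went from -0.99 to -0.57 in that setting, also counted as unmoved, since the third pair widens this spread.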
